A study of Mus musculus with 6 samples.

Results

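Antisense and bidirectional promoter noncoding RNAs were read in C2C12 myotubes with and without kaempferol. C2C12 is a mouse myoblast cell line that forms multinucleated myotubes after serum is lowered, and kaempferol is a plant flavonol. The members were the genes of the deposited count table whose biotype is antisense or bidirectional promoter lncRNA and which had at least 30 raw counts in each of 6 libraries. They were thus selected on their raw counts, with the same minimum in both groups. Gas5 and names beginning with Snhg were left out. This left 76 noncoding RNAs, 61 antisense and 15 bidirectional promoter, of 2991 genes of both biotypes and 54924 genes in all. Of the 2991, 1142 had no count in any library, and 2 were left out by name, neither of which had reached the minimum. Each RNA was set beside its neighbour, the nearest protein-coding gene on the other strand.

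An antisense RNA is copied from the strand opposite a protein-coding gene. A bidirectional promoter lncRNA starts close to the start of a coding gene and is transcribed away from it, since most mammalian promoters load RNA polymerase II in both directions. Much of this upstream RNA ends early at polyadenylation signals and is degraded by the nuclear RNA exosome, while U1 snRNP protects transcripts in the coding direction. A few antisense RNAs, such as Kcnq1ot1 and Airn, silence neighbouring genes in cis at imprinted loci, and for most of the others no function is known.

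The kaempferol group held 3 libraries of myotubes given 25 μM kaempferol for 24 h, and the control group held 3 libraries without it. All cells of both groups had been kept in differentiation medium for 6 days and reseeded in 96-well plates, and mRNA was taken with poly-T beads, so that RNA without a poly(A) tail was not enriched. C2C12 is 1 clonal line, no label states that replicate libraries are from separate cultures, and p-values therefore measure the spread between these libraries, which may be technical. In the kaempferol labels the line is spelled C2C13, and a tag on every library reads dedifferentiation.

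Total counts were 16575790 to 18625272 in the kaempferol libraries and 16869364 to 18105856 in the control libraries. With edgeR's quasi-likelihood test and Benjamini-Hochberg adjustment over 14558 tested genes, 24.0% of all genes were called at an adjusted p under 0.05, 11.3% higher and 12.6% lower with kaempferol. Of 9 tested myotube markers 3 were higher (Myog, Acta1 and Tnnc1) and 1 was lower (Mymx). Of 6 myoblast and dividing cell markers 4 were lower (Mki67, Top2a, Ccnb1 and Myod1) and none was higher. Of 10 markers of other cell types only Cdh5 and Cd68 had enough counts to be tested, neither was called, and Adipoq, Ibsp and Epcam had no count. Fewer cells of a type and less RNA per cell cannot be told apart in these bulk libraries.

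The counts carry a limit that bears on every antisense gene. The labels name no strand-marking step. Of 108 noncoding genes of at least 200 bases that lie wholly inside exons of genes on the other strand, 107 (99.1%) had no count, and the highest total over the 6 libraries was 2. Of 6462 such genes with no base in opposite exons, 3945 (61.0%) had no count. The values of a member therefore come from the bases that no exon of the other strand covers. Of the 76 RNAs 26 had no base in opposite exons. In the remaining 50 some bases were covered, and the median over all 76 was 6.27% of exonic bases. The highest share was 67.1%, in 1110002L01Rik, opposite Asxl2. In 28 RNAs over 50% of the exonic bases lay in introns of opposite genes, where unspliced RNA of the coding gene can be counted as the antisense gene. Of these, 9 lay wholly in such introns. In 41 RNAs at least 50% lay where no gene is annotated on the other strand, 11 of them wholly.

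**Figure D1:**
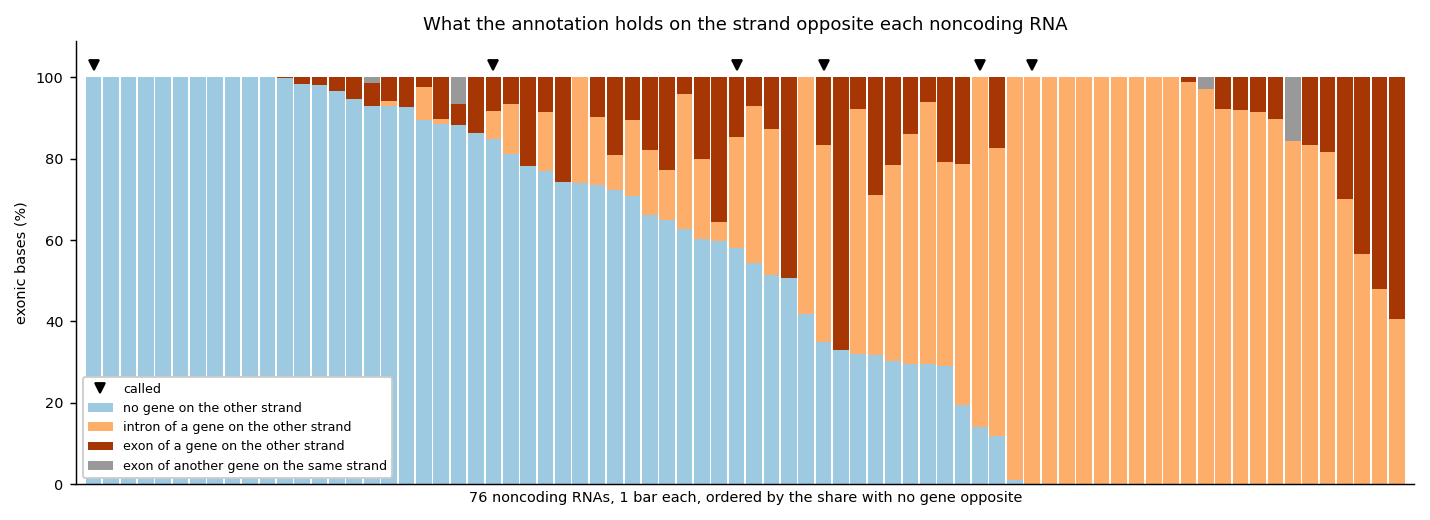
Each bar is 1 of the 76 noncoding RNAs and shows the percent of its exonic bases that face no gene, an intron or an exon of a gene on the other strand, or lie in an exon of another gene on the same strand; triangles mark the 6 RNAs called with kaempferol. The called RNAs are spread over the whole range, D430020J02Rik at the left with 100% of its bases free of opposite genes and 1700109K24Rik at the right with 100% in opposite introns.

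The RNAs were mostly of low abundance. Mean levels over the 6 libraries ran from 2.15 to 119 CPM, which are counts scaled to a common library size with TMM factors, with a median of 3.99 CPM. Of the 76, 46 were under 5 CPM and 6 were over 20 CPM. Tug1 and Brip1os together held 33.3% of all counts of the 76 RNAs. Per kilobase, 58 of the 65 RNAs with a tested neighbour had a lower level than that neighbour, and the neighbour's level per kilobase was a median of 4.71 times that of the RNA. The median was 1.89 CPM per kb over the RNAs and 13.01 CPM per kb over their neighbours. Kcnq1ot1 had the lowest level per length, 0.081 CPM per kb over an annotated length of 93092 bases, and Gm17201 the highest, 33.4 CPM per kb over 390 bases.

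The level of the 76 RNAs together did not move with kaempferol beyond the spread between libraries. Their summed level was 689, 701 and 717 CPM in the kaempferol libraries, against 709.7, 724 and 717 CPM in the control libraries. The groups overlapped, with means of 702 ± 14.3 CPM with kaempferol and 717 ± 7.11 CPM in controls (SD, n = 3 each). Of the 76 log2 fold changes 38 were above 0 and 38 below 0, and they ran from −0.78 to 0.45. The median size of a change, whatever its sign, was 0.19 on the log2 scale over the 76 RNAs and 0.15 over all tested genes.

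Of the 76 RNAs 6 (7.89%) were called by edgeR, 2 higher and 4 lower, against 24.0% of all tested genes (11.3% higher, 12.6% lower). The lower ones were D430020J02Rik, 6330403L08Rik, E130317F20Rik and 1700109K24Rik, and the higher ones were 4933412E12Rik and 4933431E20Rik. In all 6 the groups did not overlap. Groups without overlap were seen in 18 RNAs (23.7%), 10 higher and 8 lower with kaempferol, against 38.2% of all tested genes. DESeq2 called 0 higher and 3 lower, against 20.6% of all tested genes in either direction. In both tools 10 RNAs had an unadjusted p under 0.05, against 35.1% of all tested genes by edgeR. D430020J02Rik, 6330403L08Rik and E130317F20Rik were called by both tools.

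The share of called RNAs was highest at a middling level of counts, and the counts chose the members. Among genes with at least 30 counts in every library and a mean of 30 to 100 counts, 1 of 52 RNAs (1.92%) was called, against 10.2% of all such genes. With a mean of 100 to 300 counts it was 5 of 18 (27.8%), against 19.8%. With a mean of 300 counts or more it was 0 of 6, against 31.8%. The median standard error of a log2 fold change was 0.21 in the first of these groups of RNAs, 0.13 in the second and 0.077 in the third. In the lowest group the median size of a log2 change was 0.21 over the RNAs and 0.22 over all such genes, and the median standard error was 0.21 and 0.20. E130317F20Rik, Gm30025 and Gm28809 just passed the minimum with lowest counts of 30, 30 and 31, and log2 fold changes of −0.78, 0.25 and −0.40. 6330562C20Rik, Gm26782 and 6230400D17Rik just missed it with lowest counts of 29, 29 and 28, and log2 fold changes of 0.27, −0.35 and −0.35.

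**Figure D2:**
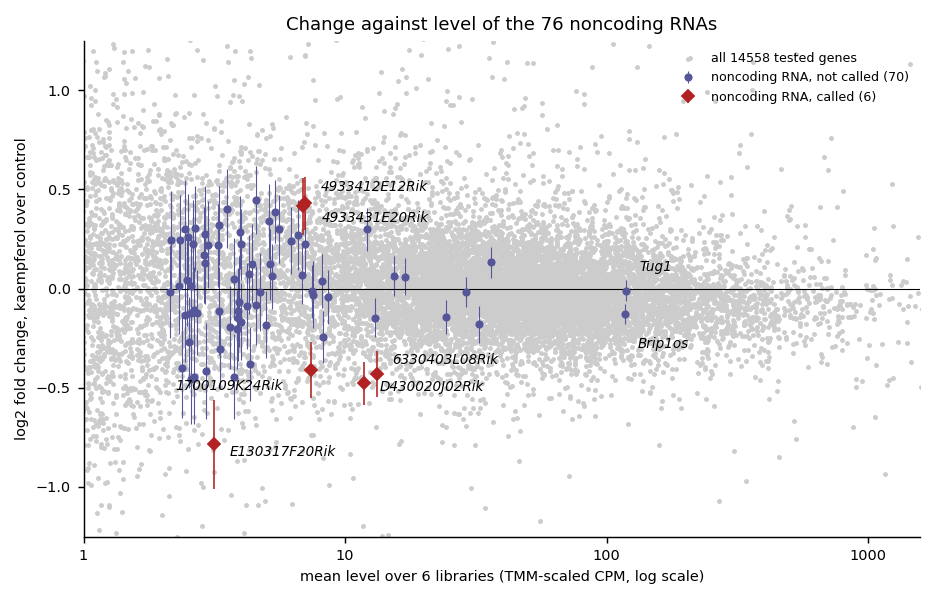
The mean level in CPM on a log axis is plotted against the log2 fold change, kaempferol over control, for the 76 noncoding RNAs with their standard errors (diamonds, 6 called; circles, 70 not called) over all 14558 tested genes in grey, of which those beyond the axes are not drawn. Most of the RNAs sit at the low end, around 3.99 CPM, with wide error bars, and the abundant Tug1 and Brip1os at 119 and 117 CPM lie close to 0.

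D430020J02Rik (ENSMUSG00000112980) is a bidirectional promoter lncRNA of 2 exons on chromosome 12, 116401947 to 116405210 (mm10, minus strand). Its neighbour Ncapg2, a subunit of the condensin II complex that compacts chromosomes for cell division, starts 192 bases away on the other strand. The stretch between both starts is shown because it is all that separates the pair, chr12:116405211-116405401, printed on the strand of the RNA with CpG dinucleotides in capitals.
D430020J02Rik: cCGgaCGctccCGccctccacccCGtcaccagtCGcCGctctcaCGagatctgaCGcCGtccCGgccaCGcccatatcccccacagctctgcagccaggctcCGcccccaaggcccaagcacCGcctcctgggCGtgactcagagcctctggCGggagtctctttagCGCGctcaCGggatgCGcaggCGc
Of its 191 bases 71.2% are G or C, and it holds 20 CpG, 0.888 times the number that its base composition gives. The sequences shown here and below are from RefSeq promoter windows of GRCm38.p6.

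D430020J02Rik stood at 9.59, 10.2 and 9.78 CPM in the kaempferol libraries, against 13.001, 13.1 and 15.2 CPM in the control libraries. Every kaempferol library was below every control library, and the spread was 0.333 CPM (SD) among the 3 kaempferol libraries and 1.24 CPM among the 3 control libraries. The log2 fold change was −0.48 ± 0.11 (SE), with an adjusted p of 0.0035 by edgeR. It was the lowest adjusted p of the 76 RNAs, and the call held in all 12 alternatives run for it, with an adjusted p of 0.00076 to 0.019. No base of this RNA lies opposite a gene.

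Ncapg2 fell as well. It stood at 121, 118 and 128 CPM in the kaempferol libraries and 159.6, 165 and 147 CPM in the control libraries, with no overlap. Its log2 fold change was −0.36 ± 0.05, adjusted p = 5.6e-05. The difference between the changes of the RNA and of Ncapg2 was −0.11 ± 0.13 on the log2 scale (limma adjusted p = 0.61), so that no difference between the 2 sides of this promoter was detected. Markers of dividing cells moved the same way: the summed level of the 6 myoblast and dividing cell markers was 1214 to 1309 CPM in the kaempferol libraries and 1614 to 1753 CPM in the control libraries, and the log2 fold change of Mki67 was −0.76 ± 0.06. Pax7 and Myf5 were the markers of this list that were not called. Their part in the change of D430020J02Rik and Ncapg2 was not tested.

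E130317F20Rik (ENSMUSG00000091994) is a bidirectional promoter lncRNA on chromosome 10, 79851381 to 79854971, minus strand, with its nearest transcript start 67 bases from one of Ptbp1. Ptbp1 is the polypyrimidine tract binding protein that represses inclusion of many exons, and its expression is known to decline as muscle cells differentiate. The stretch upstream of the Ptbp1 start, chr10:79854182-79854426, lies in the body of the RNA and is shown on the strand of the RNA, again with CpG in capitals.
E130317F20Rik: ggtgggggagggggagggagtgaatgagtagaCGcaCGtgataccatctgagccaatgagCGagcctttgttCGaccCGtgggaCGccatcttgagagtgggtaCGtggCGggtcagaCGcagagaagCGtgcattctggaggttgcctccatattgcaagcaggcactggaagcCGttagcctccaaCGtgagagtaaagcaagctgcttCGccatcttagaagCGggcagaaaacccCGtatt
Its 245 bases hold 15 CpG, 0.795 times the number given by composition, with 56.7% G or C.

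E130317F20Rik had the largest fall of the 76 RNAs and the lowest level of the 6 called, and was the only 1 of these with a mean under 100 counts. It was at 2.30, 1.80 and 2.82 CPM in the kaempferol libraries, against 3.24, 4.17 and 4.58 CPM in the control libraries. The groups did not overlap, but the gap between the highest kaempferol and the lowest control library was smaller than the range within either group. These levels are 40, 30 and 53 raw counts, against 56, 75 and 76, and a kaempferol library is exactly at the minimum of 30 that chose the members. The log2 fold change was −0.78 ± 0.22 (edgeR adjusted p = 0.017), and the call was lost without kaempferol replicate 2, control replicate 2 or control replicate 3, with an adjusted p of up to 0.077.

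Ptbp1 was at 333, 319 and 351 CPM with kaempferol and 379, 407 and 392 CPM in controls. It fell by less, with a log2 fold change of −0.23 ± 0.05 (adjusted p = 0.0017). The difference between both changes, −0.54 ± 0.22, had a limma adjusted p of 0.092 and did not pass.

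6330403L08Rik (ENSMUSG00000075585) is an antisense RNA of 1 exon on chromosome 5, 138995056 to 139000577, plus strand. It runs against the first part of Pdgfa, the A chain of platelet-derived growth factor, and one of its starts lies 19 bases from a Pdgfa start. The stretch above that Pdgfa start, chr5:138995038-138995194, is shown on the strand of the RNA with CpG in capitals, because it covers the start shared by a pair whose changes differed.
6330403L08Rik: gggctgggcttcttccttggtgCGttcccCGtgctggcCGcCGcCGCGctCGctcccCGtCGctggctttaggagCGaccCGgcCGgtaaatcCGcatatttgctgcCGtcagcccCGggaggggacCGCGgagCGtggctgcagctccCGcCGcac
It is 72.0% G or C, and its 20 CpG in 157 bases are 0.986 times the number given by composition.

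6330403L08Rik fell while Pdgfa was not called. The RNA was at 11.1, 12.4 and 10.3 CPM in the kaempferol libraries, against 16.4, 16.3 and 12.8 CPM in the control libraries. The groups did not overlap, although control replicate 3 was only just above kaempferol replicate 2. The log2 fold change was −0.43 ± 0.12 (edgeR adjusted p = 0.012). Without kaempferol replicate 3, control replicate 1 or control replicate 2 the call was lost, with an adjusted p of up to 0.070.

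Pdgfa was at 39.9, 40.1 and 41.3 CPM with kaempferol and 38.0, 41.9 and 42.2 CPM in controls, with overlapping groups and a log2 fold change of −0.01 ± 0.07 (adjusted p = 0.94). The difference between the changes of the RNA and of Pdgfa was −0.41 ± 0.14 (limma adjusted p = 0.039). It was lost without a filter on low counts and in 4 of the 6 fits that left out a library, with an adjusted p of up to 0.21. Of the exonic bases of 6330403L08Rik 14.7% lie in opposite exons and 27.2% in opposite introns, where unspliced RNA can be counted.

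1700109K24Rik (ENSMUSG00000097267) is an antisense RNA of 3 exons on chromosome 15, 77084398 to 77096314, plus strand, wholly inside introns of Rbfox2. Rbfox2 is a splicing factor that acts on many muscle exons. The RNA was at 5.46, 6.29 and 7.39 CPM in the kaempferol libraries, against 8.15, 9.02 and 8.32 CPM in the control libraries. All kaempferol libraries were below all control libraries, and the log2 fold change was −0.41 ± 0.14 (edgeR adjusted p = 0.041). It was the least stable of the falls: 4 of its 12 alternatives kept the call, DESeq2 gave an adjusted p of 0.075, and the highest adjusted p was 0.16.

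Rbfox2 itself was at 342, 369 and 364 CPM with kaempferol and 392, 391 and 383 CPM in controls. These groups did not overlap either, but the log2 fold change of −0.12 ± 0.04 had an adjusted p of 0.063 and was not called. The difference between both changes was −0.30 ± 0.15 (limma adjusted p = 0.18). Since 100% of the exonic bases of the RNA lie in Rbfox2 introns, counts from unspliced Rbfox2 RNA and from the antisense RNA cannot be told apart.

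4933412E12Rik (ENSMUSG00000112627) is a bidirectional promoter lncRNA of 6 exons on chromosome 10, 116949757 to 116963279, plus strand. Its neighbour Rab3ip encodes an exchange factor that activates Rab8 and takes part in the building of primary cilia. The nearest starts of the pair are 114 bases apart. The stretch outward from a RefSeq start of Rab3ip, chr10:116950454-116950703, is shown on the strand of the RNA with CpG in capitals. It lies within the annotated bounds of Rab3ip, whose 5′ end is at 116950769.
4933412E12Rik: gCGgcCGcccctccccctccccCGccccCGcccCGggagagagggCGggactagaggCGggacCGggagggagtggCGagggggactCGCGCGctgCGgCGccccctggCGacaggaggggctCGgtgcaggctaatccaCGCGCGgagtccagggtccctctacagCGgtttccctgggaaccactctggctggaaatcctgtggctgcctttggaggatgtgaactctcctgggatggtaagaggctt
It is 70.4% G or C and holds 20 CpG in 250 bases, 0.650 times the number given by composition.

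Both sides of this promoter rose by edgeR, and neither was called by DESeq2. The RNA was at 8.73, 7.73 and 7.66 CPM in the kaempferol libraries, against 5.66, 5.84 and 6.39 CPM in the control libraries, with no overlap. Its log2 fold change was 0.43 ± 0.13 (edgeR adjusted p = 0.027), it was not called by DESeq2 (adjusted p = 0.057), and 8 of 12 alternatives kept the call. Rab3ip was at 37.1, 35.8 and 39.3 CPM with kaempferol and 34.6, 32.0 and 29.9 CPM in controls, a log2 fold change of 0.22 ± 0.07 (edgeR adjusted p = 0.040), and was not called by DESeq2 either (adjusted p = 0.060). The difference between both changes was 0.20 ± 0.16 (limma adjusted p = 0.40). Of the exonic bases of this RNA 85.9% lie in opposite introns and 14.1% face no gene. In those introns unspliced RNA of an opposite gene cannot be told apart from the RNA itself. Gm10271, the other coding gene that its body overlaps, had 11 counts in all and was not tested.

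4933431E20Rik (ENSMUSG00000086968) is an antisense RNA on chromosome 3, 107888850 to 107896213, minus strand, with 12 annotated transcripts. One of its starts is 9 bases from a start of Gstm5, a mu class glutathione S-transferase that conjugates electrophiles with glutathione. The stretch upstream of Gstm5, chr3:107895604-107895820, is shown on the strand of the RNA with CpG in capitals.
4933431E20Rik: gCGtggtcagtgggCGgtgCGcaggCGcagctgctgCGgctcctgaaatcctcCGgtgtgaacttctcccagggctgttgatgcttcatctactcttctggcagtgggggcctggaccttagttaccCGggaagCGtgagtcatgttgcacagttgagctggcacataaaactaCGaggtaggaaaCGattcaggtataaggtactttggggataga
Its 217 bases are 55.3% G or C, with 10 CpG, 0.624 times the number given by composition.

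This RNA and Gstm5 also both rose by edgeR, and neither was called by DESeq2. The RNA was at 8.16, 7.31 and 8.29 CPM in the kaempferol libraries, against 5.72, 6.85 and 5.24 CPM in the control libraries, and kaempferol replicate 2 was the one closest to the controls. Its log2 fold change was 0.41 ± 0.14 (edgeR adjusted p = 0.043), DESeq2 gave 0.079, and 5 of 12 alternatives kept the call. Gstm5 was at 21.3, 21.7 and 19.4 CPM with kaempferol and 17.9, 16.0 and 17.9 CPM in controls. Its log2 fold change was 0.27 ± 0.09 (edgeR adjusted p = 0.036, DESeq2 adjusted p = 0.065), and the difference between both changes was 0.15 ± 0.17 (limma adjusted p = 0.59). In this RNA 16.7% of the exonic bases lie in opposite exons and 48.4% in opposite introns. Eps8l3, the other coding gene that its body overlaps, had no count.

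**Figure D3:**
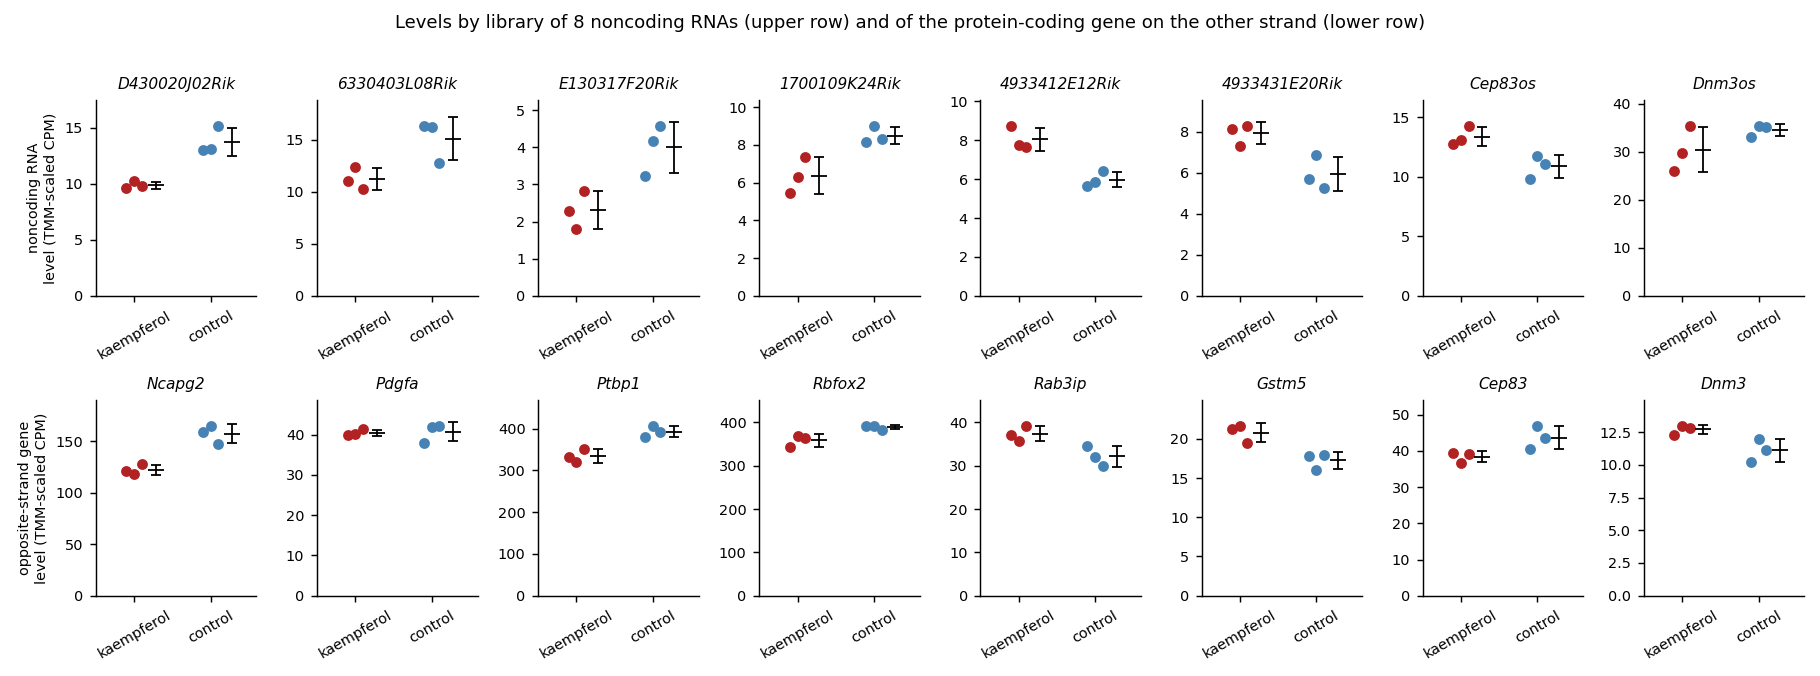
Levels in TMM-scaled CPM are plotted by library for 8 noncoding RNAs in the upper row and for their opposite-strand neighbours in the lower row; kaempferol libraries are on the left and control libraries on the right of each panel, and the bars give the mean and SD of 3 libraries. In the first 6 RNAs the groups do not overlap. Ncapg2, Ptbp1, Rbfox2, Rab3ip and Gstm5 move to the same side as their RNA, and Pdgfa stays near 40.6 CPM. Cep83os and Cep83 move apart, as do the means of Dnm3os and Dnm3, although the groups of Dnm3os overlap.

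Among the 65 neighbours that were tested, 21 (32.3%) were called, 8 higher and 13 lower, against 26.7% of all tested protein-coding genes (12.6% higher, 14.2% lower). Most neighbours had a mean of 300 counts or more. Of all genes at that level with at least 30 counts in every library, 31.8% were called. In 4 pairs the RNA and the neighbour were both called, each time in the same direction. In 2 pairs only the RNA was called, in 17 only the neighbour, and in 42 neither. In the 17 pairs the level of the neighbour was a median of 35.5 times that of the RNA (1.45 to 213 times), and the standard error of the fold change was larger for the RNA in all 17. Bace1, the beta-secretase, rose by 0.45 on the log2 scale (adjusted p = 2.7e-06), and its antisense RNA Gm16536 had a log2 fold change of 0.12 ± 0.18. Arhgap10 fell with a log2 fold change of −0.38 (adjusted p = 6.3e-05), and 0610038B21Rik had 0.22 ± 0.21. H2afy, the histone macroH2A1, had −0.30 (adjusted p = 0.00047) and Gm47071 had −0.01 ± 0.24.

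Over the 65 pairs the changes of RNA and neighbour had a Pearson correlation of 0.36 and a Spearman correlation of 0.39, and 40 pairs had the same sign. This is a description across pairs of genes measured in the same 6 libraries, and the pairs are not independent replicates. It also includes the 4 pairs that were called on both sides.

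**Figure D4:**
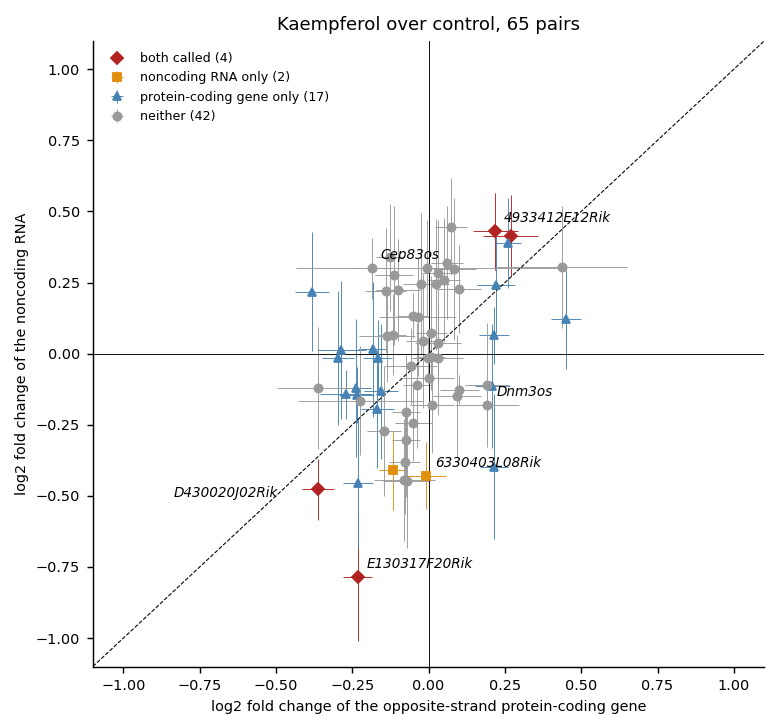
The log2 fold change of each noncoding RNA is plotted against that of its opposite-strand neighbour, kaempferol over control, for 65 pairs with the standard errors of both; the dashed line marks equal change. The 4 pairs called on both sides lie in the lower left (D430020J02Rik, E130317F20Rik) and the upper right (4933412E12Rik, 4933431E20Rik), and Cep83os lies above the line at 0.30 against −0.19 for Cep83.

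The difference within a pair was tested directly with limma over 8223 pairs of the table, of which 19.5% differed at an adjusted p under 0.05. Of the 65 pairs of the noncoding RNAs 3 (4.62%) differed: Cep83os and Cep83, 6330403L08Rik and Pdgfa, and Dnm3os and Dnm3. At an unadjusted p under 0.05 it was 8 pairs. The Cep83os pair was the only one of the 3 whose difference was kept in all alternatives run for it, 13 in number, with an adjusted p of 0.0062 to 0.028.

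Cep83os (ENSMUSG00000097164) is a bidirectional promoter lncRNA of 3 exons on chromosome 10, 94671025 to 94688576, minus strand. It starts 78 bases from Cep83, which encodes a protein of the distal appendages by which the mother centriole docks to the membrane before a cilium forms. The 77 bases between both starts, chr10:94688577-94688653, are shown on the strand of the RNA with CpG in capitals, because the difference of this pair held in all alternatives run for it.
Cep83os: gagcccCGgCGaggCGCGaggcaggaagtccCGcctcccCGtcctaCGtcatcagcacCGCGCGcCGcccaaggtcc
They are 75.3% G or C with 11 CpG, 1.04 times the number given by composition.

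Cep83os was at 12.8, 13.1 and 14.3 CPM in the kaempferol libraries, against 9.82, 11.7 and 11.1 CPM in the control libraries. Every kaempferol library was above every control library, and the log2 fold change was 0.30 ± 0.11, just short of a call (edgeR adjusted p = 0.053). Cep83 moved to the other side, with 39.3, 36.7 and 39.1 CPM with kaempferol and 40.5, 47.0 and 43.6 CPM in controls. Its groups did not overlap either, and its log2 fold change was −0.19 ± 0.07 (adjusted p = 0.065). Neither gene alone passed the test, but their difference, 0.48 ± 0.12 on the log2 scale, did (limma adjusted p = 0.0063). Of the bases of Cep83os 94.8% face no gene and 5.24% face exons.

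Dnm3os (ENSMUSG00000078190) lies inside an intron of Dnm3 on chromosome 1, 162217623 to 162225550, plus strand, and is the host transcript of a microRNA cluster known from mesenchymal and muscle cells. It was at 26.1, 29.8 and 35.4 CPM in the kaempferol libraries, against 33.1, 35.4 and 35.1 CPM in the control libraries. Kaempferol replicate 3 was as high as the highest controls, and the log2 fold change of −0.18 ± 0.09 was not called (edgeR adjusted p = 0.17). It was called only without kaempferol replicate 3 (adjusted p = 0.015). Dnm3, a dynamin of membrane fission, was at 12.3, 12.997 and 12.8 CPM with kaempferol and 10.2, 11.97 and 11.1 CPM in controls, 0.19 ± 0.11 on the log2 scale (adjusted p = 0.21). Their difference was −0.39 ± 0.13 (limma adjusted p = 0.038), and without 1 library it was kept in 1 of 6 fits. It was also lost without a filter on low counts (adjusted p = 0.092) and with the replicate number as a block (adjusted p = 0.052). Per kilobase Dnm3os was above its host gene, 4.10 against 0.487 CPM per kb. Of the exonic bases of Dnm3os 97.2% lie in opposite introns. Counts from unspliced Dnm3 RNA and from Dnm3os cannot be told apart there, which limits the difference and the comparison per kilobase.

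The other pairs among the 10 with the smallest difference p did not pass. Brip1os and Ints2 came closest, with a difference of −0.23 ± 0.08 (limma adjusted p = 0.056). 0610038B21Rik and Arhgap10 had 0.57 ± 0.21 (adjusted p = 0.066), Gm28809 and the tetraspanin gene Cd9 had −0.59 ± 0.26 (adjusted p = 0.11), and Gm16576 and Sun2, of the nuclear envelope, had 0.42 ± 0.20 (adjusted p = 0.14). 4732440D04Rik and Rb1cc1, which takes part in the start of autophagy, had 0.35 ± 0.18 (adjusted p = 0.18). 4732440D04Rik had the largest log2 fold change above 0 of the 76 RNAs, 0.45 ± 0.17, and was at 5.11, 4.55 and 6.06 CPM with kaempferol, against 3.93, 3.95 and 3.68 CPM in controls. Its groups did not overlap, but its edgeR adjusted p was 0.068.

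None of the 6 most abundant RNAs was called by edgeR or DESeq2, and none had an unadjusted edgeR p under 0.05 apart from Brip1os. Tug1 (ENSMUSG00000056579), a long noncoding RNA first described as induced by taurine, shares its promoter with Morc2a on chromosome 11, 3639785 to 3649673, minus strand. It was at 110.2, 124 and 121 CPM in the kaempferol libraries, against 116, 126 and 116 CPM in the control libraries. The groups overlapped, and the log2 fold change was −0.01 ± 0.05. The standard errors of Tug1 and Brip1os were the smallest of the 76 RNAs. Morc2a, a chromatin remodelling ATPase, likewise had 0.01 ± 0.05.

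Brip1os (ENSMUSG00000085208; chromosome 11, 86201370 to 86304443, plus strand) was at 117, 105 and 116 CPM in the kaempferol libraries, against 120.2, 127 and 120.4 CPM in the control libraries. All kaempferol libraries were lower, by a log2 fold change of −0.13 ± 0.05 that was not called (edgeR adjusted p = 0.081). Its body spans the whole of Ints2, a subunit of the Integrator complex, and part of Med13, of the Mediator kinase module, and its start faces that of Brip1, a DNA repair helicase, 177 bases away. These 3 genes did not move alike. Ints2 had a log2 fold change of 0.10 ± 0.06 (adjusted p = 0.29), Med13 had −0.26 ± 0.06 (adjusted p = 0.0036) and Brip1 had −0.23 ± 0.08 (adjusted p = 0.045). Against Brip1 the difference of Brip1os was 0.10 ± 0.10 (limma adjusted p = 0.51). In Brip1os 20.2% of the exonic bases face exons and 19.6% face introns.

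The next 4 by level were Ndufb1-ps, Dnm3os, B230354K17Rik and F730043M19Rik. Ndufb1-ps had 0.13 ± 0.08 on the log2 scale (edgeR adjusted p = 0.24) beside Cpsf2, a subunit of the complex that recognises polyadenylation signals. Its name is that of a protein gene with the pseudogene suffix -ps, and Trmt61b has the name of a protein gene. The table lists both among these biotypes. B230354K17Rik had −0.02 ± 0.08 beside Cdc5l, a splicing factor, and F730043M19Rik had −0.14 ± 0.09 (adjusted p = 0.26). Atxn7l1, the neighbour of F730043M19Rik, was lower with −0.27 ± 0.08 (adjusted p = 0.028).

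The imprinted antisense RNAs were measured at low level. Kcnq1ot1 (chromosome 7, 143203458 to 143296549, minus strand), which silences genes around Kcnq1 on the paternal allele, was at 5.92, 7.25 and 9.20 CPM in the kaempferol libraries, against 8.78, 8.07 and 6.03 CPM in the control libraries. The groups overlapped, with a log2 fold change of −0.03 ± 0.17 (edgeR adjusted p = 0.92). Kcnq1 had 11 counts over the 6 libraries together and was not tested.

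Airn (chromosome 17, 12741311 to 12860136, plus strand), which is known to silence Igf2r on the paternal allele, was at 2.99, 3.89 and 4.31 CPM with kaempferol and 5.37, 3.56 and 3.19 CPM in controls. Its groups overlapped too, with −0.12 ± 0.22 on the log2 scale (edgeR adjusted p = 0.76). Igf2r, the receptor that clears insulin-like growth factor 2, was higher with 87.8, 91.9 and 100.2 CPM with kaempferol, against 85.5, 79.9 and 77.0 CPM in controls, and a log2 fold change of 0.21 ± 0.06 (adjusted p = 0.014). The difference between the changes of Airn and Igf2r was −0.30 ± 0.21 (limma adjusted p = 0.34). Of the bases of Airn 26.0% lie in opposite introns and none in opposite exons.

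Rab26os (chromosome 17, 24528248 to 24528744, plus strand) lies inside Rab26, a GTPase gene of secretory vesicles with 16 counts in all. It had 50, 52 and 47 counts in the kaempferol libraries, against 36, 46 and 43 counts in the control libraries. Every kaempferol count was above every control count, but once scaled to CPM the groups overlapped. Its log2 fold change was 0.23 ± 0.22 (edgeR adjusted p = 0.51).

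By position, the 5′ ends of RNA and neighbour lay within 2000 bases of each other in 36 pairs, with a median distance of 238 bases. These head-to-head pairs held all 15 bidirectional promoter lncRNAs, at 37 to 1218 bases, and 21 antisense RNAs. In 12 of them the gene bodies did not overlap. In 20 pairs the RNA lay inside the neighbour, in 18 the bodies overlapped in part, 1 RNA spanned its neighbour and 1 lay apart from it. Of the 6 called RNAs 4 were head-to-head, 2 higher and 2 lower. By the nearest annotated transcript starts, a measure chosen after the data were seen, most pairs, 52 in number, were head-to-head and held all 6. By biotype, 3 of 15 bidirectional promoter lncRNAs were called, 1 higher and 2 lower, and 3 of 61 antisense RNAs, 1 higher and 2 lower. Of all tested genes 24.0% were called by edgeR, 11.3% higher and 12.6% lower, and of all the RNAs 7.89% were called. Whether the shares by position or biotype differ from each other or from these was not tested.

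RefSeq promoter windows, 250 bases before to 50 bases after a start, were matched by symbol for 42 of the 76 RNAs and for 59 neighbours. They were rich in CpG. The median ratio of observed to expected CpG was 0.747 over the windows of the RNAs, 0.850 over those of their neighbours and 0.601 over 16476 windows of protein-coding genes. It was above 0.6 in 29 of 42 windows of the RNAs (69.0%), against 50.1% of those of protein-coding genes and 44.1% of all 20449 windows. Windows of head-to-head pairs share bases, so that the RNAs and their neighbours are not independent here.

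The letters of 6 motifs were searched on both strands of these windows. The GC box GGGCGG was in 27 of 42 windows of the RNAs (64.3%), against 42.9% of all windows and 71.2% of neighbour windows. The TATA box TATAAA was in 2 (4.76%), against 13.2% and 6.78%. CCAAT was in 15 (35.7%), against 38.2%, and the E-box CANNTG, the site type of the myogenic factors, in 22 (52.4%), against 70.0%. TGACNNNGC, the core of the antioxidant response element, was in 6 (14.3%), against 13.02% of all windows. GCGTG, the core bound by the aryl hydrocarbon receptor, was in 18 (42.9%), against 36.6%. In the neighbour windows CCAAT was in 37.3%, CANNTG in 59.3%, TGACNNNGC in 11.9% and GCGTG in 67.8%. Among the called RNAs with a window, 1700109K24Rik held TGACNNNGC, and 4933412E12Rik and D430020J02Rik held GCGTG. The window of 4933431E20Rik held neither, but it is not the stretch printed above for this RNA. Read on both strands, the first letters of that stretch match TGACNNNGC and GCGTG. The printed stretches do not enter the counts given here. A match of letters is a description and not a bound site.

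The machinery that limits such RNAs was read from lists of its genes. Of 24 tested genes of the RNA exosome and its adaptors 4 were lower and none was higher, with a median log2 fold change of −0.08 against −0.00047 over all tested genes. The 4 were Exosc10, a nuclear exosome nuclease (−0.25 ± 0.05), Srrt (−0.22 ± 0.06) and Zc3h18 (−0.15 ± 0.05), which connect capped RNA to the exosome, and Pabpn1, the nuclear poly(A) binding protein (−0.27 ± 0.09). This is 16.7% of the list, against 24.0% of all genes.

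Of 16 genes listed for Integrator, which cleaves nascent RNA near promoters, 2 were higher and Ints6 was lower (−0.29 ± 0.06). This is 18.8% of the list, against 24.0% of all genes. The 2 were Ints10 (0.18 ± 0.06) and Nabp1 (0.35 ± 0.07), which is an associated factor and not an Ints subunit. Of 21 genes of U1 snRNP and polyadenylation 1 was higher, Cstf3 (0.21 ± 0.06), and 4 were lower, Cpsf1, Cpsf6, Nudt21 and Cstf2, with log2 fold changes of −0.20 to −0.15, together 23.8% of the list. Of 10 genes of RNA editing and small RNA processing Adarb1 and Ago4 were higher and Ago2 and Dicer1 were lower, 40.0% of the list.

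Of 11 genes of Polycomb repressive complex 2, which Kcnq1ot1 and Airn are known to engage, 4 were lower and none was higher, 36.4% of the list against 24.0% of all genes called and 12.6% called lower. Phf19 (−0.57 ± 0.07), Phf1 (−0.44 ± 0.10) and Rbbp7 (−0.28 ± 0.05) are accessory or histone-binding subunits, and Ezh2 (−0.18 ± 0.06) is the methyltransferase. The median of the list was −0.13. The dividing cell markers moved to the same side, as given beside D430020J02Rik, and their part in this was not tested.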

How the data were processed

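The 6 libraries share a single table of read counts, which the authors deposited without normalization. The submitters' processing notes list build mm10, fastp for reads, HISAT2 2.0.5, and featureCounts 1.5.0-p3 beside StringTie 1.3.3b, and DESeq2 1.20.0 as a further tool, and the strand setting of the counting is not given in the sources used here. Biotypes, coordinates and lengths are those of the table. Exons came from GENCODE M21, and 27 names turned into date numbers were restored from identifiers.

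Tests on counts used edgeR 4.0.16 in R 4.3.3 (quasi-likelihood test, default filter with a minimum count of 10 and a minimum total of 15, TMM factors). All 76 noncoding RNAs passed this filter, as 365 of the 2991 genes of both biotypes did. P-values were adjusted by Benjamini-Hochberg over 14558 genes, and "called" means an adjusted p under 0.05. Standard errors are those implied by the test statistic. The difference within a pair was tested with limma 3.58.1 on log2 CPM of a gene minus that of its neighbour (prior count 2), adjusted over 8223 pairs. The neighbour is the opposite-strand protein-coding gene with the smallest gap, and among ties (9 RNAs) the one with the nearest 5′ end. Alternatives were other scaling factors, other filters, DESeq2 1.42.0, a replicate block, other count minimums, other ways to pick the neighbour, and leaving out each library. The scripts were tested on simulated data. BLAST 2.17.0 found a near-identical gene elsewhere (at 95% identity, over 100 bases or more that make up 50% of the shorter of both transcripts) for 7 RNAs, none of them called.

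The RNAs and the gene lists were chosen with earlier results of these data known. Named are the called RNAs whose groups did not overlap, the 6 most abundant, those with a known role, their neighbours, 3 on each side of the count minimum, and the 10 pairs with the smallest difference p. Gm16536, Gm17201, Gm47071, 1110002L01Rik, Gt(ROSA)26Sor, Trmt61b, Gm15545 and Gm4673 were named after their values were seen.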

Additional observations from a re-analysis of the deposited data

How the results depend on the processing

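Leaving out 1 library at a time gave 0 to 2 RNAs called higher, 1 to 4 called lower, 5 to 7 neighbours higher and 9 to 14 lower, 1 to 3 differing pairs, and 2 to 3 called head-to-head RNAs. DESeq2 called 0 RNAs higher, and 2 head-to-head RNAs. At an adjusted p under 0.01, 0 RNAs were higher and 1 was lower, 4 neighbours were higher and 8 lower, and 1 pair differed. Without a filter on low counts 1 pair differed. A count minimum of 20 gave 4 RNAs higher and 5 differing pairs, and a minimum of 60 gave 4 neighbours lower. Among RNAs with at least 50% of exonic bases outside opposite-strand genes, an alternative chosen after the data were seen, 0 were higher and 3 lower. With the replicate number as a block 1 RNA was higher and 3 were lower, 6 neighbours were higher and 10 lower, and 2 pairs differed. The numbers share no stated origin, the correlations of same-numbered libraries were −0.061 to −0.025, and no library correlated best with its own number. D430020J02Rik was the one called RNA that kept its call in each of its 12 alternatives. No log2 fold change of the 6 called RNAs changed sign. The cause of the changes in the other counts was not tested. At 30 to 100 counts the median standard error was 0.21 on the log2 scale over the RNAs and 0.20 over all genes, and its part in the share of calls was not tested.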

Other observations

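The neighbour by smallest gap is not always the gene whose start is nearest. For 21 of the 76 RNAs another coding gene on the other strand had the nearer 5′ end, and these genes were looked up after the data were seen. Gm15545 starts 332 bases from Prmt1, the main asymmetric arginine methyltransferase, which was lower with a log2 fold change of −0.27 ± 0.05 (edgeR adjusted p = 0.0012), while Gm15545 had 0.13 and was not called. Gm4673 starts 106 bases from Usf2, an E-box binding factor, which was lower with −0.23 ± 0.07 (adjusted p = 0.031). Gt(ROSA)26Sor, the locus used for many mouse transgenes, starts 32 bases from Setd5. It was at 8.04, 5.99 and 8.72 CPM in the kaempferol libraries, against 7.11, 5.96 and 6.45 CPM in the control libraries, with overlapping groups and a log2 fold change of 0.23 ± 0.15. Setd5, a chromatin regulator with a SET domain, was lower with −0.18 ± 0.05 (adjusted p = 0.013). The difference between both changes was 0.39 ± 0.16 (limma adjusted p = 0.10).

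Over all 365 tested genes of both biotypes, with no minimum of 30 counts, 22 (6.03%) were called, against 24.0% of all tested genes.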
